A study of Capra hircus with 6 samples.

Results

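The smooth muscle contractile and pericyte genes described here are 35 genes chosen by name, all of which were found among the 17504 genes in the deposited FPKM tables (fragment numbers scaled for transcript length and library size). Whole-ovary RNA of 6 goats (Capra hircus) was sequenced, 1 library per goat, all labelled as follicular phase. The groups were 3 Tibetan goats, labelled non-prolific, and 3 Jintang black goats, labelled prolific; no treatment or age is given, and both groups carry the same labels of tissue and cycle phase. The 35 genes comprise 12 of the thin filament and myosin motor, 2 enzyme subunits that set myosin phosphorylation, 10 of intermediate filaments, dense bodies and actin crosslinks, 3 of ion handling, 2 integrin subunits, 2 transcription factors and 4 pericyte genes. All 35 reached the filter used for testing (1 FPKM or more in 3 or more of the 6 libraries), and 32 were at 1 FPKM or more in all 6 ovaries.

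Smooth muscle contracts when calcium entry activates myosin light-chain kinase, which phosphorylates the light chain of smooth muscle myosin so that the motor can pull on actin. Serum response factor and its cofactor myocardin switch on much of this gene set. In the ovary, smooth muscle lies in the walls of arteries and veins and in the outer theca of follicles, and pericytes wrap capillaries, so these genes mark several structures of the organ at the same time.

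The libraries were close in depth: judged from the steps between low FPKM values, the deepest had 1.11 times the depth of the shallowest, while absolute depth is unknown. Of 13067 genes tested between the breeds with limma on log2(FPKM + 1), 0 were higher and 0 lower in Jintang ovaries at a Benjamini-Hochberg adjusted p under 0.05 (0.0% called in either direction), and 806 had an unadjusted p under 0.05. Without Jintang 3, 13 genes were called, none of them among the 35. Summed over 7 luteal markers, FPKM was 7054 in Jintang 1 and 23894 in Jintang 2, against 939 to 3310.2 in the other 4 ovaries. STAR, which brings cholesterol to the steroid-making enzymes, was at 3130 FPKM in Jintang 2. Most of the Jintang 1 sum was TIMP1 (5304 FPKM), and STAR was at 138.95 FPKM there, against 139.38 FPKM in Tibetan 3. The enzymes CYP11A1 (515 against 912 FPKM) and 3BHSD (105 against 482 FPKM) were lower in Jintang 1 than in Tibetan 3. PTGFR (274 FPKM) and PRLR (53.4 FPKM) were higher in Jintang 1 than in every Tibetan ovary. The high Jintang 2 levels raise doubt about the follicular phase label but cannot settle it, and in Jintang 1 the markers were mixed. The phase was not checked in another way, and results that rest on Jintang 1 and 2 are also given without them. Values below are FPKM, given in the order Tibetan 1, 2 and 3 and then Jintang 1, 2 and 3, or as mean ± SD with n = 3 goats per breed. A positive log2 fold change means a higher Jintang mean of log2(FPKM + 1), and the added 1 makes the differences of low genes look smaller than they are.

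The contractile genes were abundant, varied several-fold between ovaries and did not separate the breeds. Summed over the 35 genes, they held 2.29%, 1.24% and 1.81% of all FPKM in Tibetan ovaries and 1.32%, 0.88% and 2.14% in Jintang ovaries. Jintang 2 had the lowest share and Tibetan 1 the highest, with Jintang 3 next to it. The median gene of the 35 spanned 1.70 log2 units between its lowest and highest ovary, against 1.15 for the median of all tested genes. In whole-organ RNA, fewer muscle cells and less RNA per muscle cell cannot be told apart.

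**Figure D1:**
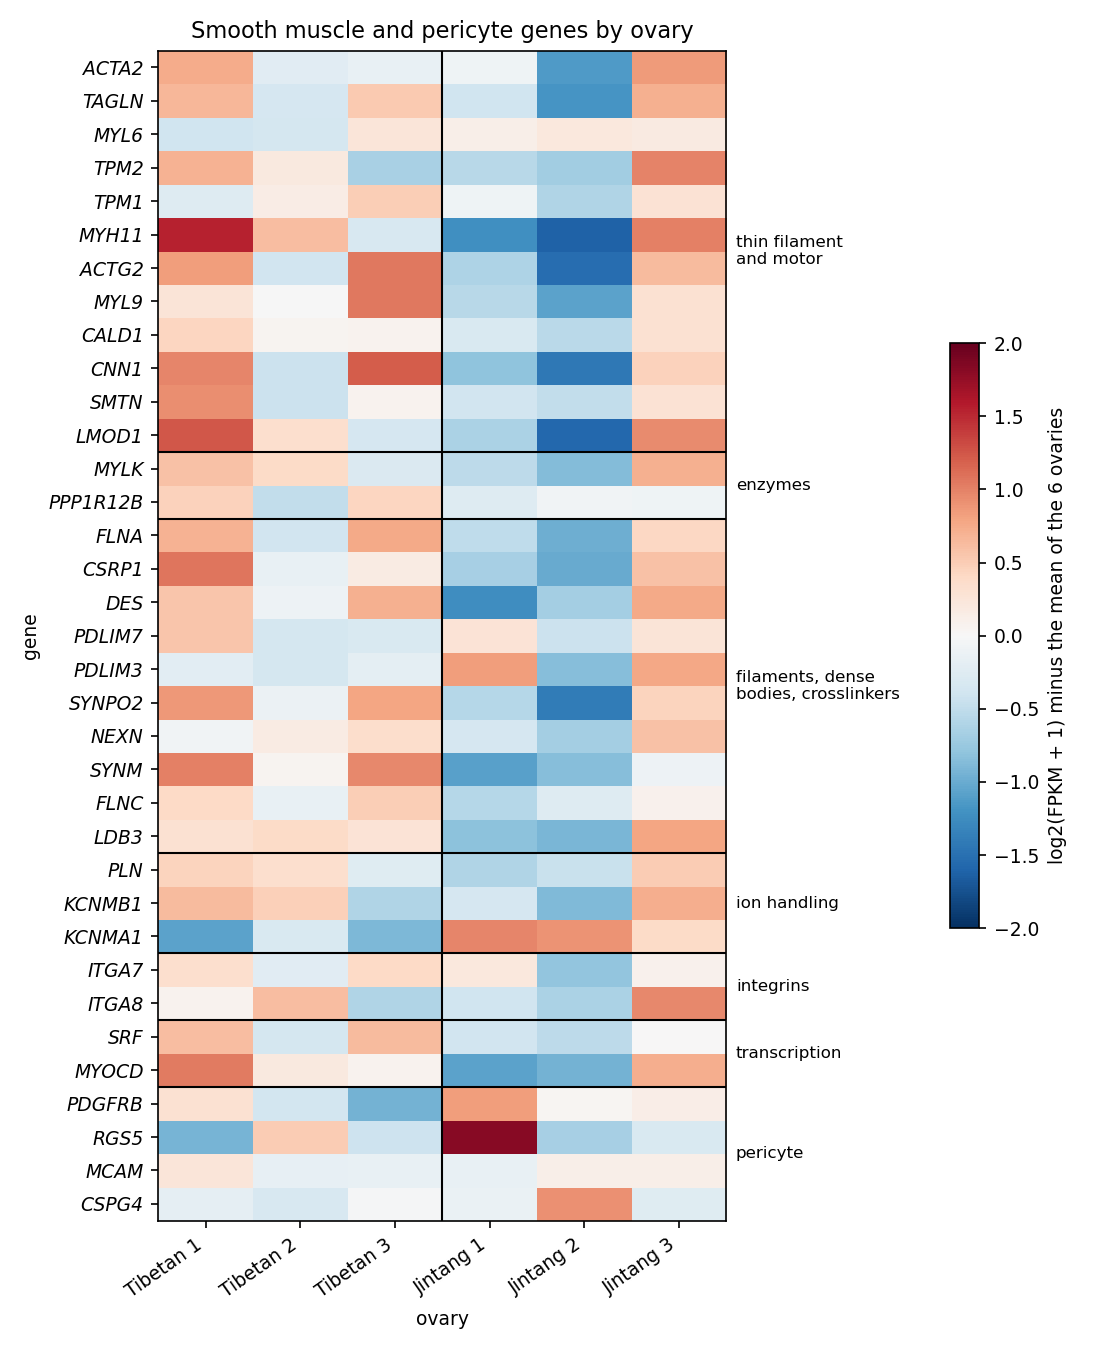
Heat map of the 35 genes (rows, grouped by role) in the 6 ovaries (columns), coloured by log2(FPKM + 1) minus the mean of the 6 ovaries. Most contractile genes are blue in Jintang 1 and Jintang 2 and red in Tibetan 1 and Jintang 3, whereas RGS5, PDGFRB, CSPG4 and KCNMA1 do not follow this pattern.

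ACTA2, smooth muscle alpha-actin and the most abundant of the 35 genes (GeneID 102191486), stood at 3434, 1751 and 1860.0 FPKM in Tibetan ovaries and at 1945, 936 and 3698 FPKM in Jintang ovaries. The highest and the lowest ovary were both Jintang, and the breeds overlapped fully (log2 fold change -0.24, SE 0.59, limma adjusted p = 0.927). TAGLN, the actin-binding protein transgelin (GeneID 102185937), was at 2505, 1251 and 2258 FPKM against 1191, 696 and 2573 FPKM. Its order resembled that of ACTA2, with Jintang 3 highest and Jintang 2 lowest (log2 fold change -0.58, SE 0.57, limma adjusted p = 0.811).

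ACTG2, the gamma-actin of visceral smooth muscle (GeneID 102178279), was at 585, 251 and 681 FPKM in Tibetan ovaries and 215, 114 and 512 FPKM in Jintang ovaries. Jintang 1 and 2 lay below every Tibetan ovary and Jintang 3 lay among them (log2 fold change -0.99, SE 0.60, limma adjusted p = 0.743). MYH11, the smooth muscle myosin heavy chain (GeneID 102177493), was at 1019, 534 and 279.6 FPKM against 148, 113 and 705 FPKM. It had the widest relative range of the 12 thin filament and motor genes, 9.02-fold between Tibetan 1 and Jintang 2, and Jintang 3 again stood among the Tibetan goats (log2 fold change -1.22, SE 0.74, limma adjusted p = 0.743).

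CNN1, calponin, which binds actin and restrains the motor (GeneID 102190599), was at 346, 130.4 and 407 FPKM in the Tibetan group and 99.6, 64.6 and 242 FPKM in Jintang ovaries. It had the lowest unadjusted p of the 12 thin filament and motor genes, 0.0789 (log2 fold change -1.18, SE 0.59, limma adjusted p = 0.743). DES, desmin, the intermediate filament of muscle (GeneID 102180712), was at 199, 126 and 221 FPKM against 56.6, 84.3 and 228 FPKM. Here Jintang 3 held the highest value of all 6 ovaries and Jintang 1 the lowest (log2 fold change -0.77, SE 0.51, limma adjusted p = 0.758).

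**Figure D2:**
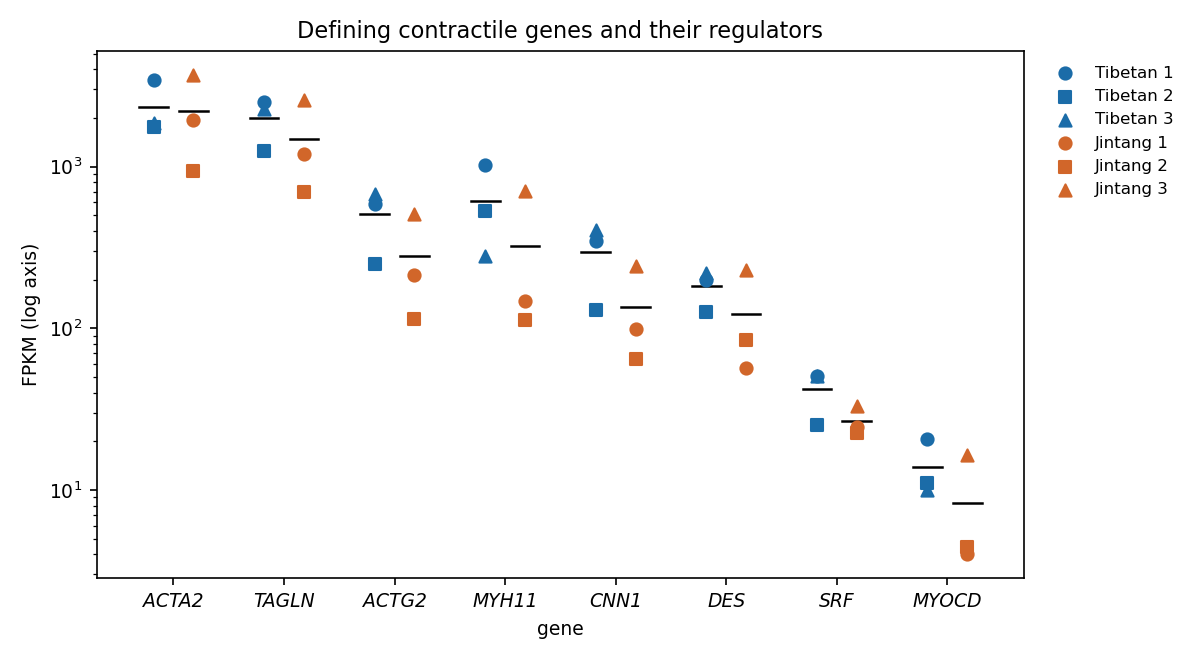
FPKM (log axis) of 8 genes in each ovary; blue symbols are Tibetan goats, orange symbols Jintang goats, symbol shape gives the goat's number and horizontal lines are breed means. For every gene Jintang 3 (orange triangle) lies above Jintang 1 and 2, and the breeds overlap.

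The light chains did not follow one pattern. MYL9, the regulatory light chain that the kinase phosphorylates, was at 352, 293 and 613 FPKM in the Tibetan group and 199.7, 139.8 and 363 FPKM in the Jintang group (log2 fold change -0.88, SE 0.45, limma adjusted p = 0.743). MYL6, the essential light chain that non-muscle myosin also uses, was at 905, 934 and 1415 FPKM against 1297, 1375 and 1349.7 FPKM (log2 fold change 0.34, SE 0.37, limma adjusted p = 0.830). MYL6 was the only thin filament and motor gene of the 12 with a positive fold change, and its whole range was 1.56-fold.

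The tropomyosins, which lie along actin, were both among the 5 most abundant of the 35 genes. TPM1 was at 512, 678 and 861 FPKM in the Tibetan group and 577, 402 and 743 FPKM in the Jintang group (log2 fold change -0.26, limma adjusted p = 0.876). TPM2 was at 1159, 813 and 457 FPKM against 487, 440.0 and 1427 FPKM (log2 fold change -0.16, limma adjusted p = 0.949). Tibetan 3 was the highest ovary for TPM1 and the second lowest for TPM2, so the pair diverged within that ovary. Without Tibetan 1, Jintang 1 or Jintang 2 the fold change of TPM2 turned positive (0.15, 0.07 and 0.14), and that of ACTA2 did without Tibetan 1 or Jintang 2 (0.07 and 0.26).

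The remaining genes of the thin filament and motor also had negative fold changes. LMOD1, leiomodin, an actin-filament nucleator of smooth muscle, was at 108, 57.0 and 35.5 FPKM in the Tibetan group and 28.7, 14.5 and 87.5 FPKM in the Jintang group (log2 fold change -0.84). SMTN (smoothelin) averaged 99.8 ± 49.3 and 72.2 ± 22.8 FPKM, and CALD1 (caldesmon) 269.8 ± 41.2 and 214 ± 67.7 FPKM, at log2 fold changes of -0.39 and -0.36. Of the 12 genes of this group 11 had a negative fold change (91.7%, against 59.0% of all tested genes), with a median of -0.48. In this group 0 passed the test and 0 had breed ranges that did not overlap, against 9.9% of all tested genes without overlap.

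MYLK, the light-chain kinase, was at 301, 260.2 and 163 FPKM in the Tibetan group and 139, 109.5 and 329 FPKM in the Jintang group (log2 fold change -0.45, SE 0.46, limma adjusted p = 0.816). Its order put Jintang 3 first and Jintang 2 last, as for ACTA2. PPP1R12B, a targeting subunit of the phosphatase that reverses this step, was near the floor of the tested range, at 2.85, 0.98 and 2.76 FPKM against 1.33, 1.64 and 1.63 FPKM (log2 fold change -0.28).

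Among the 10 genes of intermediate filaments, dense bodies and crosslinks, 8 had a negative fold change (80.0%, against 59.0% of all tested genes). The median of the 10 was -0.67, and 1, SYNM, had ranges that did not overlap. SYNM, synemin, a desmin partner that ties filaments to the membrane (GeneID 102181539), was at 43.3, 21.9 and 42.1 FPKM in the Tibetan group and 9.34, 11.3 and 19.5 FPKM in Jintang ovaries. It was the only one of the 35 genes with every Jintang ovary below every Tibetan ovary (log2 fold change -1.36, SE 0.38), but the gap between Tibetan 2 and Jintang 3 was small and the limma adjusted p was 0.743 (unadjusted 0.00683). Jintang ovaries lay below without overlap in 6.7% of all tested genes. The fold change of SYNM ran from -1.67 to -1.15 with single ovaries left out.

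SYNPO2, synaptopodin 2 of the Z-disc and dense body, was at 57.7, 28.5 and 54.4 FPKM in the Tibetan group and 20.6, 11.1 and 43.0 FPKM in the Jintang group (log2 fold change -1.02, SE 0.49, limma adjusted p = 0.743). CSRP1, a LIM-domain protein of the actin cytoskeleton, was at 591, 252 and 314 FPKM against 176, 139 and 419 FPKM (log2 fold change -0.72). FLNA, the broadly expressed filamin, was at 523, 248 and 546 FPKM against 226, 164 and 430.2 FPKM (log2 fold change -0.71). In all 3 genes Jintang 1 and 2 were the lowest ovaries and Jintang 3 overlapped the Tibetan range.

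FLNC, the muscle filamin, was far lower than FLNA per length, at 15.2 ± 3.62 and 10.5 ± 2.61 FPKM (log2 fold change -0.50). LDB3, a Z-disc protein better known from striated muscle, was at 2.36, 2.52 and 2.26 FPKM in Tibetan ovaries and at 0.53, 0.44 and 3.68 FPKM in Jintang ovaries. Its Tibetan values were nearly equal, while Jintang 3 was 8.36 times Jintang 2. NEXN (nexilin) averaged 35.7 ± 5.35 and 30.9 ± 15.2 FPKM.

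The PDZ-LIM proteins PDLIM3 and PDLIM7, which bind alpha-actinin and other actin-associated proteins, had positive fold changes. PDLIM3 was at 114, 103 and 116 FPKM in the Tibetan group and 236, 73.3 and 228 FPKM in the Jintang group (log2 fold change 0.51, SE 0.46, limma adjusted p = 0.798). Jintang 1, which was among the upper 3 ovaries for 8 of the 35 genes, held its highest value. PDLIM7 averaged 144 ± 55.1 and 149 ± 37.8 FPKM, and its fold change of 0.07 turned to -0.01 with quantile normalization and turned negative with 4 of the 6 single ovaries left out.

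Both transcription factors were lower on average in Jintang ovaries, with overlapping ranges. SRF was at 50.7, 25.3 and 50.7 FPKM in the Tibetan group and 24.6, 22.4 and 32.9 FPKM in the Jintang group (log2 fold change -0.60, SE 0.34, limma adjusted p = 0.743). MYOCD, myocardin, was at 20.5, 11.1 and 9.99 FPKM against 4.02, 4.45 and 16.3 FPKM (log2 fold change -0.86, SE 0.51, limma adjusted p = 0.743). The factors parted in Tibetan 3, where SRF was at its highest and MYOCD stood below its 3 highest ovaries. MYH11 and LMOD1 had the same rank there as MYOCD, and ACTG2, CNN1 and FLNA were at their highest.

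KCNMA1 encodes the pore subunit of the large-conductance calcium-activated (BK) potassium channel, and KCNMB1 its smooth muscle beta subunit. KCNMA1 (GeneID 102186276) was at 0.58, 1.68 and 0.79 FPKM in the Tibetan group and 5.56, 5.18 and 3.35 FPKM in Jintang ovaries. Every Jintang ovary lay above every Tibetan ovary, the only such case among the 35 genes, where 3.2% of all tested genes did so (log2 fold change 1.51, SE 0.35, unadjusted p = 0.00235, limma adjusted p = 0.743). KCNMB1 was at 28.1, 25.0 and 11.3 FPKM against 13.8, 9.12 and 29.97 FPKM, with full overlap (log2 fold change -0.33, SE 0.49, limma adjusted p = 0.878).

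The pore gene was thus highest in Jintang 1 and 2, where most contractile genes were lowest. PLN, phospholamban, an inhibitor of the calcium pump of the internal store, was at 27.4, 25.1 and 16.6 FPKM in the Tibetan group and 12.7, 14.4 and 28.5 FPKM in the Jintang group (log2 fold change -0.36). Without Jintang 2 the fold change of KCNMB1 was 0.03, whereas that of KCNMA1 stayed between 1.36 and 1.74 with single ovaries left out. The smallest limma adjusted p of KCNMA1 in those fits was 0.192, without Jintang 3.

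Integrins link muscle cells to the matrix. ITGA7, a laminin-binding subunit, averaged 13.5 ± 3.22 FPKM and 10.8 ± 3.95 FPKM in the Tibetan group and Jintang goats. ITGA8, which pairs with the beta-1 subunit in smooth muscle, averaged 6.42 ± 3.03 and 6.65 ± 4.93 FPKM, with Jintang 3 highest (12.3) and Jintang 2 lowest (3.43). The fold change of ITGA8 was -0.05 and its sign turned with median-ratio scaling (0.05), so no direction is given.

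The 4 pericyte genes did not share the direction of most contractile genes. All 4 had a positive fold change (median 0.46), against 41.0% of all tested genes, and none passed the test. RGS5, a regulator of G-protein signalling enriched in pericytes (GeneID 102177576), was at 23.98, 66.2 and 34.4 FPKM in the Tibetan group and 166, 29.0 and 37.2 FPKM in the Jintang group (log2 fold change 0.56, SE 0.66, limma adjusted p = 0.844). Jintang 1 alone set its mean, and without that ovary the fold change was -0.21. PDGFRB, the platelet-derived growth factor receptor of mural cells and fibroblasts, was at 91.8, 57.5 and 38.3 FPKM against 134, 76.8 and 81.6 FPKM (log2 fold change 0.68, SE 0.39, limma adjusted p = 0.743).

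MCAM, an adhesion molecule shared with endothelium, was the steadiest of the 35 genes, at 51.9, 39.1 and 39.3 FPKM in the Tibetan group and 39.3, 47.5 and 47.4 FPKM in Jintang ovaries, a range of 1.33-fold. CSPG4, the NG2 proteoglycan, was at 5.69, 5.12 and 6.48 FPKM against 5.91, 13.3 and 5.45 FPKM. Its high value was Jintang 2 alone, and without that ovary its fold change was -0.01. The fold change of MCAM, 0.05, became -0.02 without Tibetan 2 or without Tibetan 3, so PDGFRB was the only pericyte gene whose sign held with each ovary left out.

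**Figure D3:**
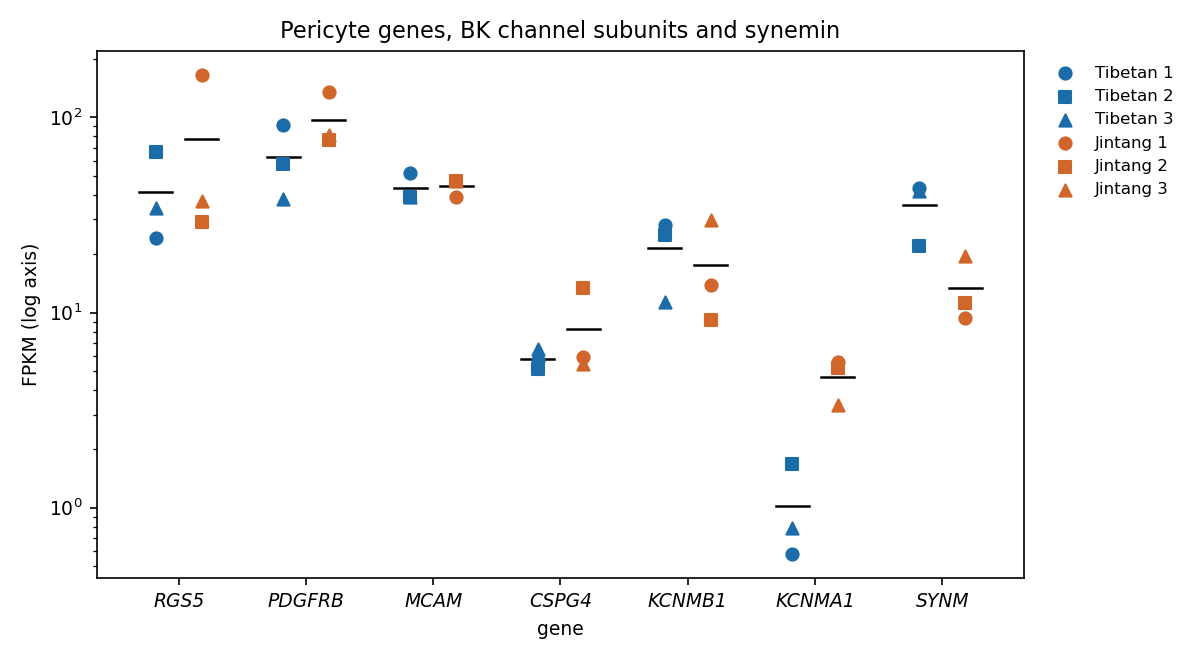
FPKM (log axis) of the 4 pericyte genes, the BK channel subunits KCNMB1 and KCNMA1, and SYNM in each ovary; symbols as goats, horizontal lines as breed means. KCNMA1 and SYNM are the genes whose Tibetan and Jintang symbols do not overlap, and RGS5 stands out in Jintang 1 at 166 FPKM.

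Over all 35 genes, 27 (77.1%) had a negative and 8 a positive fold change, with a median of -0.37. Among all 13067 tested genes 59.0% were negative, with a median of -0.10. Median-ratio scaling moved the median of all genes by over 0.1, to 0.02, and that of the 35 genes to -0.24, with 26 negative. This direction rested on Jintang 1 and Jintang 2: with both left out, a choice made after the data were seen, 25 of the 35 genes were positive and 10 negative, with a median of 0.29 (all tested genes -0.01). That fit has 1 Jintang ovary, which is assumed to vary like the Tibetan ovaries, and none of the 35 genes passed it. SYNM remained negative (-0.78) and KCNMA1 positive (1.15) there, while RGS5 (-0.03) and CSPG4 (-0.06) turned negative. None of the 35 passed the limma test (smallest adjusted p 0.743), and 2, KCNMA1 and SYNM, had an unadjusted p under 0.05 (5.7%, against 6.17% of all tested genes, 2.82% being higher and 3.35% lower in Jintang ovaries). Breed ranges did not overlap in the same 2 genes (5.7%, against 9.9% of all tested genes), so both shares were no higher than in the whole table.

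That count depended on which ovaries entered. Without Jintang 3, 13 of the 35 genes (37.1%) had an unadjusted p under 0.05, 12 lower and 1 higher in Jintang ovaries, against 14.3% of all tested genes (9.08% lower and 5.26% higher), and the smallest limma adjusted p was 0.192. The 12 lower genes were ACTG2, MYH11, CNN1, DES, LMOD1, MYL9, SYNPO2, MYOCD, SYNM, CSRP1, FLNA and LDB3. Without Tibetan 2 the count was 5 (14.3%, against 5.89%), and these were CNN1, SYNPO2, SRF and SYNM, lower in Jintang ovaries (3.24% of all tested genes), and KCNMA1, higher (2.66%). The median fold change of the 35 genes was -0.70 without Jintang 3 and -0.19 without Jintang 2.

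**Figure D4:**
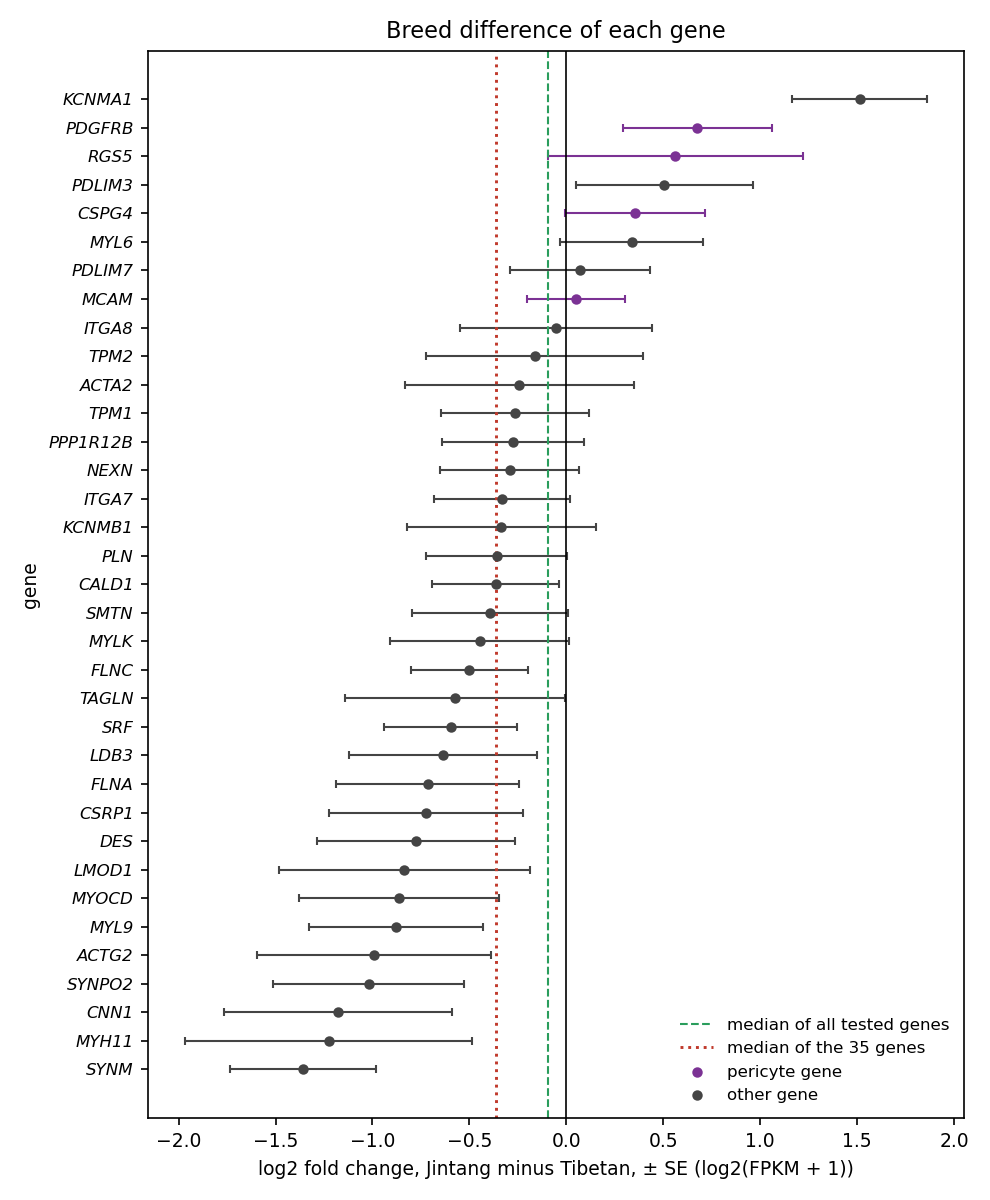
Log2 fold change (Jintang minus Tibetan, log2(FPKM + 1)) of each gene with its standard error from limma, ordered by size; purple points are pericyte genes. Of 35 points 27 lie below 0, the median of the 35 (dotted line, -0.37) lies left of that of all tested genes (dashed line, -0.10), and no gene passed the test.

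The ovaries differed as a whole in these genes. Jintang 2 held the lowest value of 23 of the 35 genes (65.7%, against 25.7% of all tested genes), and Jintang 3 held the highest of 10 (28.6%, against 8.53%) and the lowest of none. Tibetan 1 held the highest value of 11 genes (31.4%, against 21.9%) and Tibetan 3 of 9 (25.7%, against 18.0%). Tibetan 2 held the highest of none, against 18.4% of all tested genes, and Jintang 1 the lowest of 5 (14.3%, against 25.2%). In 19 genes (54.3%, against 22.3% of all tested genes) Jintang 1 and Jintang 2 were the lowest 2 of the 6 ovaries, a count chosen after the values were seen. None of the 4 pericyte genes was among these 19.

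The mean of ACTA2, ACTG2, MYH11, TAGLN, CNN1 and DES, centred on the log2(FPKM + 1) scale, was 0.89 in Tibetan 1, 0.74 in Jintang 3, 0.50 in Tibetan 3, -0.14 in Tibetan 2, -0.73 in Jintang 1 and -1.26 in Jintang 2. Closeness to this pattern was measured as the mean absolute difference over the 6 ovaries. Of the other members SYNPO2 (0.15) and CSRP1 (0.17) lay nearest, and KCNMA1 (1.29), RGS5 (1.26), PDGFRB (0.96) and CSPG4 (0.92) lay farthest. The pericyte gene MCAM (0.65) lay nearer to the pattern than MYL6 (0.77) and PDLIM3 (0.67). Among genes outside the 35, the 8 nearest with a symbol were PHF21B (0.10), ISYNA1 (0.10), HOXC6 (0.15), NFIA (0.15), TCAP (0.16), SPEG (0.16), MRVI1 (0.17) and OBSL1 (0.17). SPEG, a kinase of striated and smooth muscle, was at 48.2, 18.8 and 28.1 FPKM in the Tibetan group and 12.4, 6.62 and 28.8 FPKM in Jintang ovaries. MRVI1, a target of cyclic GMP-dependent kinase in smooth muscle, was at 44.8, 20.1 and 29.98 FPKM against 17.5, 10.8 and 33.6 FPKM. TCAP and OBSL1 encode sarcomere-associated proteins, HOXC6 and NFIA transcription factors.

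Ratios of FPKM within an ovary do not depend on a scaling factor applied to the whole library, though quantile normalization can change them. The ratio of ACTG2 to ACTA2 was 0.170, 0.143 and 0.366 in Tibetan and 0.110, 0.122 and 0.138 in Jintang ovaries. All Jintang ratios lay below all Tibetan ratios, but Tibetan 2 and Jintang 3 were nearly equal and Tibetan 3 stood apart from the rest. The ratio of MYL9 to MYL6 was 0.388, 0.314 and 0.433 against 0.154, 0.102 and 0.269, also without overlap. The ratio of MYH11 to ACTA2 overlapped (0.297, 0.305 and 0.150 against 0.0761, 0.121 and 0.191), as did that of RGS5 to ACTA2 (0.00698, 0.0378 and 0.0185 against 0.0852, 0.0309 and 0.0101). The ratio of KCNMB1 to KCNMA1, chosen after the values were seen, was 48.4, 14.9 and 14.3 against 2.48, 1.76 and 8.95. These ratios are given without a test, and how often other gene pairs separate the breeds was not counted.

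**Figure D5:**
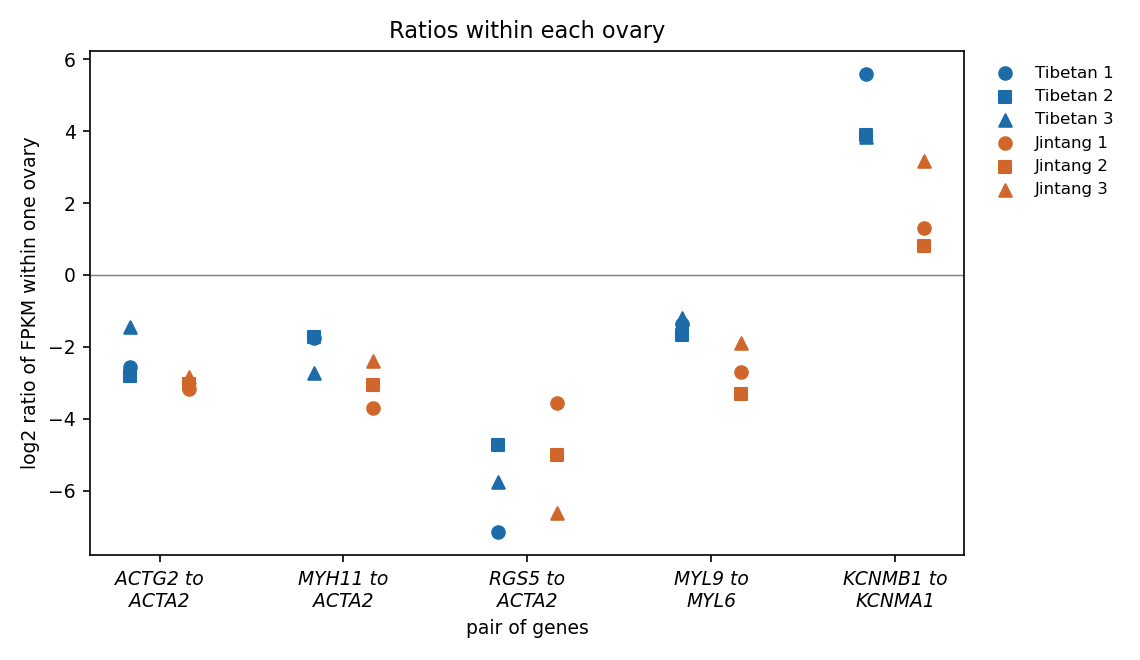
Log2 ratio of FPKM between 2 genes of the same ovary, for 5 pairs; blue symbols are Tibetan and orange symbols Jintang goats. The symbols of the breeds do not overlap for ACTG2 to ACTA2, MYL9 to MYL6 and KCNMB1 to KCNMA1, and overlap for the other 2 pairs.

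ACTA2 and ACTG2 encode nearly identical proteins, as do the actins of striated muscle, so reads can be shared between these genes and the level of each is uncertain. ACTA1, skeletal alpha-actin, was at 366 FPKM in Tibetan 3 and 6.06 to 14.0 FPKM elsewhere, and ACTC1, cardiac actin, was at 19.7 FPKM in Tibetan 3 and at most 1.25 FPKM elsewhere. ACTG2 was also highest in Tibetan 3, and so were the cytoplasmic actins ACTB (5349 FPKM) and ACTG1 (4228 FPKM). Other striated muscle genes were mixed in Tibetan 3. TNNT1 was at 15.5 FPKM there, CSRP3, a muscle LIM protein, at 30.3 FPKM, CKM at 3.19 FPKM and TNNT3 at 1.51 FPKM, while MYL1 was at 0.57, TNNT2 at 0.18, TTN at 0.02 and MYL2 at 0 FPKM. TNNT1 and CSRP3 were highest in that ovary and CKM and TNNT3 were not. The part of these transcripts in the actin levels was not tested.

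The kinase and phosphatase genes around the motor showed no common direction: 6 of 16 tested genes were positive and 10 negative (median -0.01), with 0 of 16 at an unadjusted p under 0.05. PDE5A, which degrades cyclic GMP, was at 5.58, 10.2 and 6.94 FPKM in the Tibetan group and 15.6, 9.94 and 11.6 FPKM in Jintang ovaries. PPP1R12A, the main targeting subunit of myosin phosphatase, was at 50.7 ± 5.97 and 38.9 ± 17.1 FPKM. It was far more abundant per length than PPP1R12B.

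The list of calcium entry and stores also held the channel genes ANO1, KCNJ8 and ABCC9. KCNJ8 and ABCC9 are counted again among the further pericyte and mural genes below. Of the 13 tested genes of this list, 8 were negative (61.5%, against 59.0% of all tested genes, median -0.29) and none passed the test. Lower in Jintang ovaries, 2 had an unadjusted p under 0.05 (15.4%, against 3.35% of all tested genes) and 3 had ranges that did not overlap (23.1%, against 6.7%). TRPC6, a receptor-operated cation channel, was at 2.78, 5.31 and 6.38 FPKM in the Tibetan group and 1.58, 1.18 and 2.40 FPKM in the Jintang group (log2 fold change -1.07, limma adjusted p = 0.743). ITPR1, the inositol trisphosphate receptor of the internal store, was at 29.9, 21.3 and 24.5 FPKM against 15.04, 10.4 and 19.6 FPKM (log2 fold change -0.74, limma adjusted p = 0.743). CACNB2, a subunit of voltage-gated calcium channels, was at 9.65, 6.34 and 6.47 FPKM against 4.30, 1.98 and 6.33 FPKM, with Tibetan 2 and Jintang 3 nearly equal. Its pore partner CACNA1C averaged 8.54 ± 4.64 and 6.35 ± 2.78 FPKM.

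Receptors that contract or relax smooth muscle ranged from 0 to 20.8 FPKM. Of 15 found, 10 could be tested, 7 of them negative (70.0%, against 59.0% of all tested genes, median -0.45) and 0 at an unadjusted p under 0.05. The highest values were those of the serotonin receptor HTR2B in Tibetan 3 (20.8 FPKM, at most 3.51 elsewhere), the endothelin receptor EDNRA in Tibetan 2 (16.2) and Jintang 3 (14.6), and the angiotensin receptor AGTR1 in Tibetan 2 (13.4). OXTR, the oxytocin receptor, was above 0.16 FPKM only in Tibetan 3 (2.75), and HTR2A was at most 0.26 FPKM. ADRA1D, an alpha-1 adrenoceptor, was at 1.10, 1.24 and 1.35 FPKM in the Tibetan group and 0.69, 0.36 and 0.33 FPKM in Jintang ovaries, without overlap. It was the only such case among the 10 tested genes, where Jintang lay below without overlap in 6.7% of all tested genes. All values were near the floor, and ADRA1D reached the filter of 1 FPKM through the 3 Tibetan libraries alone. The filter thus favoured this order, and no breed difference is read from it. NPR1, a natriuretic peptide receptor, averaged 9.08 ± 3.84 and 5.39 ± 0.120 FPKM, and EDNRB, an endothelin receptor, 2.74 ± 0.986 and 4.59 ± 1.67 FPKM.

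Among known partners of SRF and myocardin, 5 of 11 tested genes were positive and 6 negative (median -0.001), with none at an unadjusted p under 0.05. The myocardin-related factors, listed as MKL1 and MKL2, averaged 9.04 ± 3.13 and 16.7 ± 3.78 FPKM in Tibetan goats, and 6.74 ± 0.184 and 13.5 ± 0.682 FPKM in Jintang goats. The 3 genes with the smallest p were ELK4, an SRF partner of the ETS family (5.04 ± 1.16 and 7.39 ± 1.38 FPKM), HOPX, a homeodomain protein that binds SRF (102 ± 58.7 and 169.8 ± 97.6 FPKM), and CSRP2, a LIM protein of smooth muscle (131 ± 31.8 and 98.3 ± 31.6 FPKM).

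Focal adhesion and cortical actin genes had 7 of 17 positive (median -0.09) and none at an unadjusted p under 0.05. TNS1, tensin, was at 90.4, 77.3 and 69.0 FPKM in the Tibetan group and 41.4, 44.5 and 67.2 FPKM in Jintang ovaries, a narrow gap without overlap (log2 fold change -0.64, limma adjusted p = 0.743). Such a gap with Jintang below was found in 5.88% of this list, against 6.7% of all tested genes. VCL (vinculin) averaged 103 ± 26.8 and 71.6 ± 19.8 FPKM, and LIMS1, an adaptor of integrin-linked kinase, 23.7 ± 7.92 and 32.0 ± 6.08 FPKM.

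Further pericyte and mural genes had 10 of 15 positive (median 0.07), with 1, ANPEP, at an unadjusted p under 0.05 and without overlap (6.67%, against 6.17% and 9.9% of all tested genes). ANPEP, an aminopeptidase of pericytes and other cells, averaged 5.91 ± 0.588 FPKM in Tibetan goats and 2.77 ± 0.583 FPKM in Jintang goats (log2 fold change -0.88, limma adjusted p = 0.743). ABCC9, a potassium channel regulator of pericytes, was at 3.33, 5.38 and 3.89 FPKM against 20.75, 7.0 and 3.44 FPKM. HIGD1B, a pericyte-enriched mitochondrial protein, was at 4.68, 12.3 and 49.2 FPKM against 67.7, 21.7 and 14.2 FPKM. In 8 of the 15 genes Jintang 1 held the highest value (53.3%, against 12.6% of all tested genes), a count made after the values were seen. These included ABCC9, HIGD1B, the ABCC9 partner KCNJ8 (33.4 FPKM) and NOTCH3, a receptor of mural cells (41.4 FPKM). The other 7 peaked elsewhere: GJA4, ANPEP and FOXS1 in Tibetan 3, ANGPT1 and EBF1 in Tibetan 2, CD248 in Jintang 2 and THY1 in Jintang 3. Of the 4 pericyte members RGS5 and PDGFRB were highest in Jintang 1, MCAM in Tibetan 1 and CSPG4 in Jintang 2.

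Markers of other cell types moved between the same ovaries. Jintang 1 and Jintang 2, the ovaries with the lowest contractile genes, had the highest sums of the 7 luteal markers, followed by Tibetan 3 (3310.2 FPKM) and the other 3 (939 to 1221 FPKM). All 7 had a positive fold change, and TIMP1 was the most abundant (641 ± 572 and 4942 ± 4465 FPKM). TIMP1 made up 5304 of the 7054 FPKM in Jintang 1. STAR, CYP11A1 and 3BHSD were not higher in Jintang 1 than in Tibetan 3, so the order of the sums did not hold for these genes. The 10 fibroblast genes summed to between 2394 and 4693 FPKM in the Tibetan group and between 4448 and 11562 FPKM in Jintang ovaries. Of these, 7 were positive, and COL3A1 was the most abundant (788 ± 271 and 1842 ± 1052 FPKM). The collagens COL1A1, COL1A2 and COL3A1 and also LUM were highest in Jintang 1 and Jintang 2. The rest did not share this order: DCN (531 FPKM), FBLN1 (126 FPKM) and PI16 were lowest in Jintang 2, and PDGFRA, DPT and TCF21 in Tibetan 3. The 9 endothelial markers summed to 206 to 330.1 FPKM and 237 to 407 FPKM, with 7 of 9 positive and VWF the most abundant. The part of these cell types in the contractile pattern was not tested.

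The other lists gave the following levels. The 7 macrophage markers summed to 41.0 to 133.5 FPKM in the Tibetan group and 80.0 to 521 FPKM in Jintang ovaries, with all 7 positive and CD68 the most abundant. Jintang 1 held the highest value of all 7 (100%, against 12.6% of all tested genes). The sum of Jintang 2, 80.0 FPKM, lay within the Tibetan range. The 10 granulosa markers summed to 314 to 471 and 222 to 523 FPKM, led by SERPINE2, with 5 positive. The 5 theca markers found summed to 25.0 to 779 and 32.7 to 130.5 FPKM, led by CYP17A1 (listed as LOC102182663), and 2 of 4 tested were positive. The 7 epithelial and mesothelial markers summed to 23.3 to 139.8 and 21.0 to 259 FPKM, led by KRT18, with 3 of 6 positive. Of the 9 striated muscle genes found, 4 were tested and 1 was positive, and the list summed to 14.2 to 407 and 12.8 to 22.9 FPKM. The 3 red blood cell genes found, led by AHSP, summed to at most 0.72 FPKM. Taken as lists, granulosa and theca markers of the labelled tissue and smooth muscle markers were present in all 6 libraries. Single markers could be absent or low: in Tibetan 1 the granulosa markers FSHR and AMH were at 0 and 0.68 FPKM.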

How the data were processed

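Per the labels' protocols, TRIzol was used to extract RNA and an NEBNext kit to prepare 1 cDNA library from each ovary. The authors deposited 1 FPKM table per goat. RSEM 1.2.0, TopHat2 2.0.10 and Bowtie2 2.1.0 appear, without roles, in the submitters' processing notes. No coordinates are printed, because the build is not given in the sources used. A second table of the whole series, with 6 columns, was not used. Symbols came from a RefSeq gene table (ARS1.2): the GeneID gave 16459 symbols and a transcript accession 9, which left 1036 genes without one. Of 180 entries in 6 pathway and 9 cell type lists, 23 matched no gene. CYP17A1 and CYP11A1 were matched through the synonyms of that table.

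The breed comparison used limma 3.58.1 under R 4.3.3 (intensity trend, breed as the only term, 2-sided, threshold 0.05) on log2(FPKM + 1), adjusted over all 13067 genes with at least 1 FPKM in 3 libraries. Lists are described by counts and medians only. The members, lists, tests and naming rule were chosen with earlier results of these data known. The rule names the 6 defining contractile genes, both transcription factors, the 4 pericyte genes, members whose ranges do not overlap, the 3 with the largest fold change per direction, the 5 most abundant, 3 genes per pathway list by p, the most abundant gene per cell type list and the 8 genes nearest in pattern; other genes were added after their values were seen. One gene that the rule names is not reported here. The test was also run on simulated data of 12879 genes, with 3 against 3 libraries and genes varying independently. Recovery was 0% at a true log2 difference of 1, 58% at 2, 78% at 3 and 92% at 4. Differences were given only to genes with a mean log2(FPKM + 1) above 3, so low genes such as KCNMA1, LDB3 and PPP1R12B are not covered. Each library is 1 goat, and p-values measure the spread between goats. The alternatives changed the pseudocount (0.1 or 0.01), the filter (5 FPKM, or none), the scaling (a common sum, median ratio or quantile), the trend, the replicate block or the libraries, each left out in turn; a fit without Jintang 1 and 2 was added after the data were seen. Figures used matplotlib 3.10.9, with pandas 2.3.3 and numpy 2.4.6 in Python 3.11.15.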

Additional observations from a re-analysis of the deposited data

How the results depend on the processing

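Under 15 other settings (9 of processing, 6 leaving out 1 ovary each) no member passed the limma test, with a smallest adjusted p of 0.192. The number of genes called ran from 0 to 13 with 1 ovary left out (13 without Jintang 3) and was 0 under the other 9. The median fold change of the members ran from -0.70 to -0.19 with 1 ovary left out. For 27 members the sign held under every setting in which they were fitted. KCNMA1, LDB3 and PPP1R12B are among these 27 but did not pass the filter of 5 FPKM, where 32 members were fitted. The log2 fold change of ITGA8 turned with median-ratio scaling (0.049) and quantile normalization (0.003), and the log2 fold change of PDLIM7 with quantile normalization (-0.012). With 1 ovary left out, the fold change ran from -0.73 to 0.26 for ACTA2, -0.70 to 0.15 for TPM2, -0.21 to 1.03 for RGS5, -0.014 to 0.56 for CSPG4, -0.019 to 0.18 for MCAM, -0.09 to 0.37 for PDLIM7, -0.78 to 0.026 for KCNMB1 and -0.55 to 0.25 for ITGA8.

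With Jintang 3 as the only Jintang library, added after the data were seen, 0 genes were called and 131 had an unadjusted p under 0.05, and the median fold change of the members was 0.289. The sign turned for 21 members: ACTA2 0.725, ACTG2 0.142, MYH11 0.4, TAGLN 0.422, DES 0.363, LMOD1 0.529, MYLK 0.489, SMTN 0.093, CALD1 0.118, MYOCD 0.289, RGS5 -0.031, CSPG4 -0.064, TPM1 0.152, TPM2 0.918, CSRP1 0.219, FLNA 0.057, PLN 0.325, KCNMB1 0.558, ITGA8 0.929, LDB3 0.47 and NEXN 0.434. It also turned for PPP1R12A 0.203, CSRP2 0.054, ABCC9 -0.209, HIGD1B -0.032, PHF21B 0.176, ISYNA1 0.242, HOXC6 0.015, NFIA 0.076, TCAP 0.387 and MRVI1 0.157.

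The labels give both breeds the numbers 1 to 3, but same-numbered goats did not deviate together (Pearson r across genes -0.02, -0.21 and -0.47). The numbers are used here only to name goats. With 3 goats per breed these values cannot show whether goats were paired. With the replicate number as a block 0 genes and 0 members were called, and 4 members instead of 2 had an unadjusted p under 0.05. Absolute depth is unknown, so counting error cannot be given for low genes such as KCNMA1, LDB3 and PPP1R12B.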
